A study of Homo sapiens with 8 samples.

Results

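The 10 genes described here belong to heme breakdown and to the response governed by NRF2, measured in A673/TR/shFEZF1 cells, an Ewing sarcoma line in which doxycycline induces an shRNA against FEZF1. They are HMOX1 and HMOX2 (heme oxygenases), BLVRA and BLVRB (biliverdin reductases), NFE2L2 (which encodes NRF2) and the NRF2 target genes NQO1, GCLM, GCLC, TXNRD1 and SRXN1. The 10 genes were chosen by name with the paired doxycycline comparison of these libraries already known, and BLVRB was selected on its change in that comparison. Values of the 10 genes in that comparison, and the number that passed its threshold, are therefore given as a description, and support nothing about these genes. All 10 were found among the 34792 genes summed, and all 10 passed the filter on low counts that left 15993 genes for testing.

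A673 cells carry the EWSR1-FLI1 fusion. The A673/TR parent, which was grown from 1 clone, makes the tetracycline repressor all the time, and the shRNA is transcribed from an H1 promoter in a lentiviral cassette. The study asked which genes depend on FEZF1, a zinc finger transcription factor known from nervous system development. RNA of 8 cultures was sequenced, namely the polyclonal population (bulk) and clones 3, 5 and 6, each left untreated (control) and each given doxycycline at 1 µg/mL for 72 h. The clones had been kept because FEZF1 protein was low after doxycycline. All 8 cultures carried the repressor and the shRNA cassette and grew in the same selection antibiotics. None of the 8 had doxycycline without the shRNA, so the drug and the shRNA cannot be told apart.

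Heme oxygenases open the heme ring and release iron, carbon monoxide and biliverdin. Biliverdin reductases turn biliverdin into bilirubin, of which BLVRA makes the main isomer in adults. NRF2 is held low by KEAP1, which hands it to a ubiquitin ligase, and under oxidative or electrophilic stress it builds up and binds antioxidant response elements together with small MAF proteins. Its targets make glutathione, keep thioredoxin reduced and detoxify quinones, and HMOX1 is also a target of NRF2 and of the heme-sensing repressor BACH1.

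Between 26719886 and 42422421 reads were assigned to transcripts in each library. Levels are in CPM, estimated reads scaled to a common library total by the TMM method, unless TPM is named. FEZF1, the gene targeted by the shRNA, was at 96.4, 70.5, 107 and 74.4 CPM in the control bulk culture and clones 3, 5 and 6. With doxycycline it was at 60.6, 42.9, 60.8 and 36.4 CPM in the same order. FEZF1 was lower in 4 of 4 pairs and the groups did not overlap, and its log2 fold change was -0.81 (standard error 0.0726). By edgeR's quasi-likelihood test the Benjamini-Hochberg adjusted p was 0.00594 with origin as a replicate block and 0.29 with no replicate block. FEZF1 shares its locus with the antisense gene FEZF1-AS1, and whether the counting used strand was not stated. FEZF1-AS1, added after its values were seen, was at 140.1, 104, 148 and 95.1 CPM in the controls and at 158, 151, 226 and 132 CPM with doxycycline, higher in 4 of 4 pairs (log2 fold change 0.45, edgeR, Benjamini-Hochberg adjusted p = 0.019, and 0.675 with no replicate block). By RT-qPCR, the study reported FEZF1-AS1 as unaffected by FEZF1 knockdown in its shRNA lines, A673 among them. The source of this difference was not tested.

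The cells had the markers of their label. The summed level of 8 Ewing sarcoma markers was between 3868 CPM (clone 3, control) and 5591 CPM (clone 6, doxycycline), with CD99 the most abundant per length. Of the 8, NKX2-2 (log2 fold change 0.30) and NR0B1 (0.67) rose and GLI1 (-0.77) fell with doxycycline (edgeR, Benjamini-Hochberg adjusted p = 0.0414, 0.00745 and 0.0268, and 0.825, 0.125 and 0.635 with no replicate block). Of all genes tested, 3.73% rose and 3.91% fell. Heme genes are also prominent in red cell precursors and in macrophages, so the defining markers of both were read. Of 10 erythroid markers, HBG1 and HBG2 were among those at 0 in all libraries and the sum was between 7.74 and 11.8 CPM, with HBB the most abundant per length. Of 8 macrophage and leukocyte markers, TYROBP was at 0 and the sum was between 5.11 and 13.7 CPM, with CD68 the most abundant per length. ITGAM rose from a mean of 0.578 to 1.57 CPM in that list (log2 fold change 1.28, edgeR, Benjamini-Hochberg adjusted p = 0.0414, and 0.635 with no replicate block). The part of any other cell type in the results below was not tested.

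On a scale per transcript length, the 10 genes covered a wide range. TXNRD1 had the highest mean level over the 8 libraries (166 ± 30.9 TPM, SD, n = 8), followed by BLVRB (143 ± 68.7 TPM). HMOX2 was next at 91.1 ± 6.45 TPM, the smallest relative spread of the 10 genes. NFE2L2 was at 76.6 ± 10.6, BLVRA at 68.3 ± 18.8 and NQO1 at 47.1 ± 16.6 TPM. SRXN1 was at 31.5 ± 16.4 TPM. HMOX1 (14.1 ± 9.87 TPM), GCLM (11.4 ± 2.17 TPM) and GCLC (10.9 ± 2.86 TPM) were lowest. Each gene overlapped its neighbour in this order when the lowest and highest library were compared. TXNRD1 and BLVRB did not keep this order in every culture. In the controls TXNRD1 (134 to 177 TPM) was always above BLVRB (74.9 to 110 TPM). With doxycycline BLVRB was above TXNRD1 in bulk (212 against 147 TPM) and clone 6 (273 against 143 TPM). It was below TXNRD1 in clone 3 (130 against 220 TPM) and clone 5 (159 against 201 TPM). Of the reads that the authors' mean implies for GCLC, 49.1% were matched to the symbol, so its level is understated, whereas the match was 92.7% for GCLM and at least 98.7% for the other 8 genes.

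The heme oxygenases, the first step, differed from each other in how much they varied. HMOX1 encodes the inducible enzyme and lies on chromosome 22 from 35381096 to 35394207 (GRCh38.p14, as all positions here). HMOX1 was at 5.75, 12.3, 26.5 and 2.53 CPM in the control bulk culture and clones 3, 5 and 6. With doxycycline it was at 10.0, 11.4, 23.3 and 4.63 CPM. The 2 low cultures, bulk and clone 6, were higher with doxycycline, and the 2 high ones, clones 3 and 5, were slightly lower. The log2 fold change of HMOX1 was 0.29 (standard error 0.199), from 63 estimated reads in the clone 6 control to 729 in the clone 5 control. It ranged from 0.05 to 0.48 over all settings tried, and was 0.11 without bulk, 0.15 without clone 6, 0.44 without clone 3 and 0.48 without clone 5.

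HMOX2 encodes the constitutive heme oxygenase (chromosome 16, 4474736 to 4510347). HMOX2 was at 63.6, 78.7, 73.9 and 72.6 CPM without and at 72.3, 76.7, 82.5 and 89.2 CPM with doxycycline. It was higher in 3 of 4 pairs, clone 3 being the exception, and its log2 fold change was 0.15 (standard error 0.0675), or 0.10 without clone 6. Its reads were divided between NM_002134.4 (52.6%) and the predicted transcript XM_017023196.2 (40.9%). The share of NM_002134.4 was 52.1% ± 4.96 in controls and 52.4% ± 2.51 with doxycycline (SD, n = 4 each).

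The biliverdin reductases changed by different amounts, and the difference between them was not tested. Biliverdin and bilirubin were not measured, so a change in BLVRB RNA is not a readout of heme breakdown. BLVRB encodes the NADPH-dependent reductase that also reduces flavins (chromosome 19, 40447768 to 40465745, minus strand), and its reads came from the 1 transcript NM_000713.3. BLVRB was at 40.3 CPM in the control bulk culture, 29.5 in clone 3, 31.5 in clone 5 and 44.6 in clone 6. With doxycycline BLVRB was at 78.8, 49.2, 63.2 and 115 CPM in the same order. Every doxycycline culture lay above every control culture. Its mean went from 36.5 ± 7.16 to 76.6 ± 28.5 CPM (SD, n = 4 each), and the log2 fold change was 1.02 (standard error 0.0992), between 0.90 and 1.11 over all settings. In the pairs the level was 1.95 times that of the control in bulk, 1.67 in clone 3, 2.01 in clone 5 and 2.59 in clone 6. The FEZF1 ratios of the same pairs were 0.628, 0.609, 0.567 and 0.49. Clone 6 had the highest BLVRB and the lowest FEZF1 ratio, while the lowest BLVRB ratio was in clone 3 and the highest FEZF1 ratio in bulk, and with 4 pairs a relation was not tested.

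BLVRA encodes the reductase that makes the main isomer of bilirubin in adults (chromosome 7, 43758122 to 43807342). BLVRA was at 38.4, 26.5, 35.0 and 45.5 CPM in the controls and at 45.2, 23.0, 35.8 and 59.5 CPM with doxycycline. It was lower in clone 3, close to its control in clone 5 and higher in bulk and clone 6. The log2 fold change of BLVRA was 0.12 (standard error 0.0993), and it was 0.02 without clone 6, 0.07 without bulk and 0.22 without clone 3. Of its reads, 96.0% were from NM_000712.4.

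**Figure D1:**
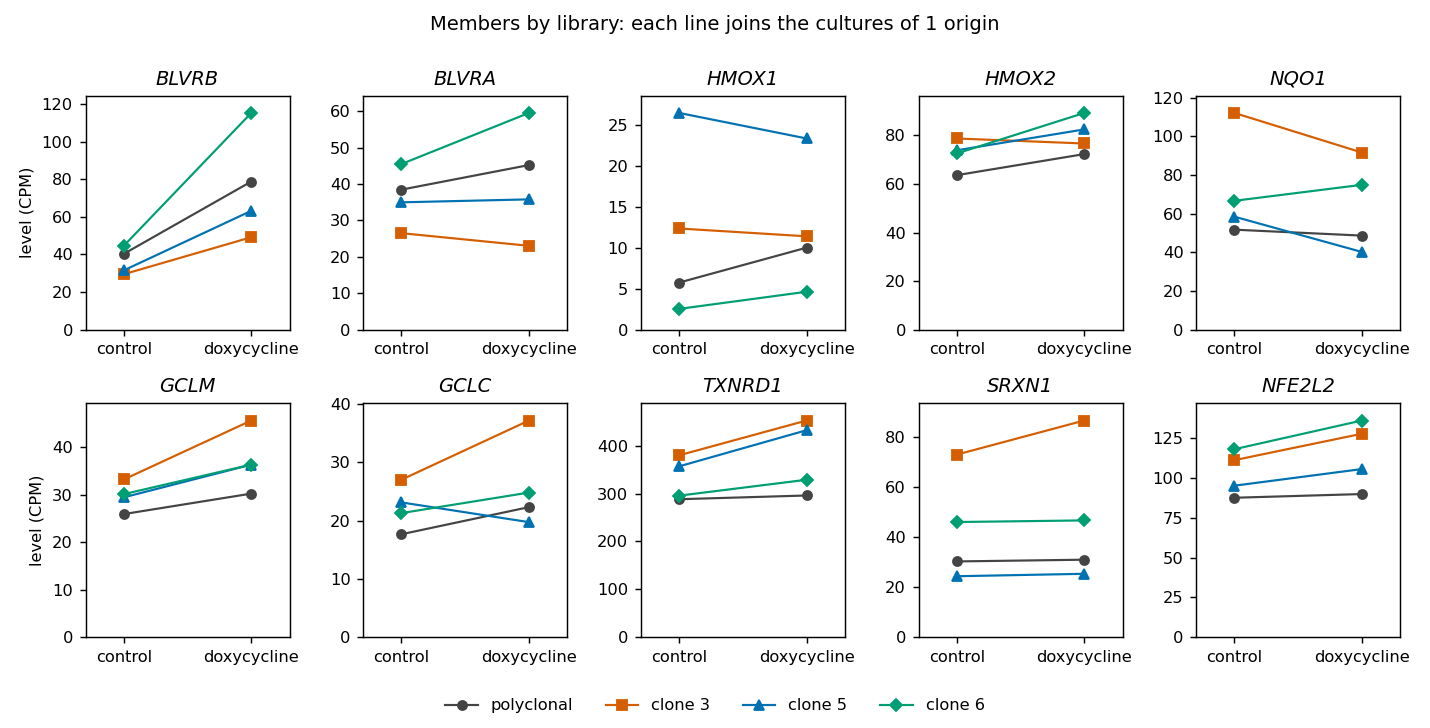
Level of each of the 10 genes in CPM (vertical axes from 0, 1 panel per gene) in the control and the doxycycline culture of each origin, joined by a line per pair. The BLVRB panel is the one in which all 4 doxycycline points (49.2 to 115 CPM) lie above all 4 control points (29.5 to 44.6 CPM).

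NFE2L2 encodes NRF2 itself (chromosome 2, 177230303 to 177264727), which is regulated mostly at the level of the protein, so its RNA is not a readout of NRF2 activity. NFE2L2 was at 87.6, 111, 95.2 and 118 CPM in the controls and at 89.9, 128, 106 and 136 CPM with doxycycline. It was higher in 4 of 4 pairs, but its highest and lowest origins were 1.43 times apart, and the log2 fold change was 0.15 (standard error 0.0544).

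Antioxidant response elements have the core TGACNNNGC, and this core was looked for on both strands of the RefSeq promoters (GRCh38.p14, 250 bases before to 50 after each start). It was in 13.3% of 35116 promoters. Among the 10 genes, 9 had an entry, with 12 promoters, of which 3 held 4 matches, 1 at GCLM and 3 at TXNRD1. BLVRB had no match, which says only that these letters are not in that window. The 4 matches are shown because they are the stretches of these promoters that hold the core, and they are written 5′ to 3′ on the strand of the gene with the match in capitals.
GCLM, chr1:93909446-93909474, minus strand: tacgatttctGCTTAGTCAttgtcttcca
TXNRD1, chr12:104215670-104215698, plus strand: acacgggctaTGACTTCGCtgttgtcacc
TXNRD1, chr12:104215761-104215789, plus strand: gcgtccttcgGCTCCGTCAgttcccacag
TXNRD1, chr12:104286920-104286948, plus strand: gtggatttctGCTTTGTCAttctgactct
The second line reads in the orientation searched and the other 3 in reverse complement. A match is a description of the sequence, and binding was not measured in these libraries.

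GCLM and GCLC encode the modifier and the catalytic subunit of glutamate-cysteine ligase, which makes the first intermediate of glutathione. GCLM (chromosome 1, 93885199 to 93909430) was at 25.9, 33.2, 29.5 and 30.1 CPM in the controls and at 30.2, 45.6, 36.4 and 36.4 CPM with doxycycline. It was higher in 4 of 4 pairs, while the bulk doxycycline culture stayed below the clone 3 control. The log2 fold change of GCLM was 0.31 (standard error 0.0696). GCLC (chromosome 6, 53497341 to 53545101) was at 17.7, 27.0, 23.1 and 21.3 CPM without and at 22.3, 37.2, 19.8 and 24.8 CPM with doxycycline. GCLC was higher in bulk, clone 3 and clone 6 and lower in clone 5, and its log2 fold change was 0.20 (standard error 0.116), or 0.11 without clone 3 and 0.33 without clone 5.

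TXNRD1 encodes the cytosolic thioredoxin reductase (chromosome 12, 104215779 to 104350307). TXNRD1 was at 288, 380.0, 357 and 296 CPM in the controls and at 296, 453, 432 and 329 CPM with doxycycline. It was higher in 4 of 4 pairs by small steps, and the log2 fold change was 0.18 (standard error 0.0568). Most of its reads were from NM_182729.3 (78.4%), with 9.38% from NM_182743.3 and 8.91% from NM_003330.4.

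SRXN1 encodes sulfiredoxin, which repairs overoxidized peroxiredoxins (chromosome 20, 646615 to 653200). SRXN1 was at 30.3, 73.1, 24.4 and 46.1 CPM in the controls and at 31.0, 86.8, 25.4 and 46.8 CPM with doxycycline. In bulk, clone 5 and clone 6 the paired cultures were nearly equal, with ratios of 1.02, 1.04 and 1.01. The log2 fold change of SRXN1 was 0.09 (standard error 0.0664), or 0.04 without clone 3.

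NQO1 encodes a quinone reductase that is often read as a marker of NRF2 activity (chromosome 16, 69709401 to 69726560). NQO1 was at 51.7, 112, 58.4 and 66.7 CPM in the controls and at 48.7, 91.6, 40.2 and 74.9 CPM with doxycycline. It was lower in bulk, clone 3 and clone 5 and higher in clone 6. The log2 fold change of NQO1 was -0.19 (standard error 0.107), the one value below 0 among the 10. It was -0.09 without clone 5 and -0.31 without clone 6.

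Read over the 10 genes, BLVRB stood apart from a group of small changes. Of the 10 genes, 2 were called with doxycycline at an adjusted p under 0.05, BLVRB and GCLM, both higher. Of all genes tested, 7.63% were called (3.73% higher and 3.91% lower), and since BLVRB was chosen on this comparison nothing is read from the count. When any 1 of the 4 origins was left out, GCLM was not called and the count was 1, while the log2 fold change of GCLM was between 0.26 and 0.34. With no replicate block 0 of the 10 were called (0.00625% of all genes), and 2 of the 10 had an unadjusted p under 0.05. The share of all genes at that unadjusted cutoff is not given, so nothing is read from such counts here or below. DESeq2 called 3 with origin in the model, TXNRD1 being the third (12.0% of all genes), and 1 without origin, BLVRB (1.44%). The fitted log2 fold change was above 0 in 9 of 10 genes, with a median of 0.17 against 0.0042 over all genes tested, and no gene of the 10 changed sign in any setting tried. In 5 of the 10 the level was higher in 4 of 4 pairs (17.3% of all genes), and in 1, BLVRB, the groups did not overlap (4.96% of all genes).

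Set against the other 9 genes pair by pair, BLVRB had the highest log2 ratio of the 10 in each of the 4 pairs. The log2 ratio of BLVRB was 0.96 in bulk, 0.73 in clone 3, 0.99 in clone 5 and 1.36 in clone 6. The median of the other 9 was 0.18, 0.20, 0.06 and 0.22 in the same order. The gene closest to BLVRB was HMOX1 in bulk (0.75) and clone 6 (0.76), GCLC in clone 3 (0.45) and GCLM in clone 5 (0.30). BLVRB minus the median of the others was 0.77, 0.53, 0.94 and 1.14, a mean of 0.85 ± 0.26 (SD, n = 4 pairs). The scatter of the pairs themselves, as the SD of the log2 ratio over 9445 genes at 10 CPM or more, was 0.235 in bulk, 0.283 in clone 3, 0.314 in clone 5 and 0.333 in clone 6. Clone 6, with the largest BLVRB ratio, thus also had the widest scatter. Over all genes tested, 84 were called and rose by more than BLVRB.

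**Figure D2:**
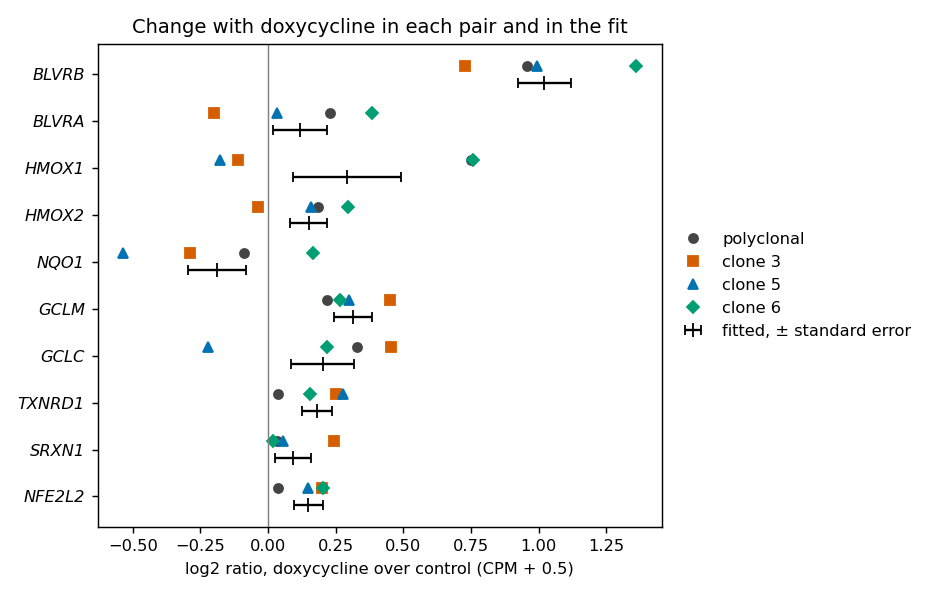
Log2 ratio of doxycycline over control (horizontal axis) for each of the 10 genes, 1 colored point per pair, with the fitted log2 fold change and its standard error in black. BLVRB lies between 0.73 and 1.36 in all 4 pairs, and the fitted changes of the other 9 genes lie between -0.19 and 0.31.

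These genes also differed by the origin of the culture. The rule that chose them did not name this comparison, but they were chosen with earlier results of these data known. Of the 10 genes, 9 differed between the 4 origins (edgeR's quasi-likelihood F test, adjusted p under 0.05), against 39.4% of all genes tested. All genes tested include many at lower levels than the 10, and the share among genes of like level is not given. HMOX2 was the exception (Benjamini-Hochberg adjusted p = 0.181). The median ratio of the highest to the lowest origin was 1.82 over the 10 genes and 1.48 over all genes. Each origin had 2 libraries, 1 without and 1 with doxycycline, and no culture was repeated in the same condition. The p-values set the differences between origins against how unequally the origins changed with doxycycline. They do not measure a spread between repeat cultures of an origin. In a bulk library more cells with a transcript and more transcript per cell cannot be told apart. The number called was between 6 and 9 when 1 origin was left out.

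HMOX1 had the widest range. Clone 5 had the most and clone 6 the least HMOX1, by 10.4 times in the controls and 5.04 times with doxycycline, and no neighbours in the order clone 5, clone 3, bulk, clone 6 overlapped (edgeR F test, Benjamini-Hochberg adjusted p = 0.00203). The reductases had another order. BLVRB and BLVRA were each highest in clone 6, then bulk, clone 5 and clone 3, both without and with doxycycline. For BLVRA no neighbours overlapped and the adjusted p of the same edgeR test was 0.00569, while for BLVRB each neighbour overlapped the next and the adjusted p was 0.00762. Clone 6 was thus the origin with the least HMOX1 and the most of both reductases in either condition.

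The 5 target genes other than HMOX1 had their highest level in clone 3. NQO1, GCLM, GCLC, TXNRD1 and SRXN1 were each highest in clone 3 without and with doxycycline, 5 of the 10 genes, against 13.8% of all genes tested, a pattern picked out after the values were seen. The mean level of SRXN1 in clone 3 was 3.21 times that in clone 5, with no overlap between neighbours in the order clone 3, clone 6, bulk, clone 5 (edgeR F test, Benjamini-Hochberg adjusted p = 0.000146). NQO1 in clone 3 was 2.07 times that in clone 5, and bulk and clone 5 overlapped (adjusted p = 0.00458 in the same edgeR test). TXNRD1 differed by 1.43 times (adjusted p = 0.00641), with clones 3 and 5 overlapping at the top and clone 6 and bulk below. GCLM differed by 1.40 times, with each neighbour overlapping the next (edgeR adjusted p = 0.0309), and GCLC by 1.61 times (edgeR adjusted p = 0.0382). NFE2L2 was highest in clone 6, which overlapped clone 3 (edgeR adjusted p = 0.00667).

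Clone 3 also stood apart in markers of another kind. The sum of 6 fibroblast markers was 2808 CPM without and 2698 CPM with doxycycline in clone 3, and between 608 and 1118 CPM in the other 6 libraries. Per length, COL3A1 had the highest mean over the 8 libraries (172 TPM, against 165 TPM for COL1A1). COL1A1 was above COL3A1 in both bulk libraries, both clone 5 libraries and the clone 3 control (388 against 353 TPM). COL1A1 and COL3A1 carried this sum. DCN (3.59 and 2.68 CPM) and LUM (0.378 and 0.610 CPM) were lower in clone 3 than in the other libraries, where DCN was at 9.06 CPM or more and LUM at 0.965 CPM or more. None of the 6 was at 0 in all libraries and 0 of 6 were called with doxycycline. The sum of 8 Ewing sarcoma markers was lowest in clone 3 (3868 and 3913 CPM). CD99 was at 874 and 801 CPM there, against 1484 to 2367 CPM in the other libraries. Within each condition NKX2-2, STEAP1, PRKCB and GLI1 were also lowest in clone 3. NR0B1 was highest there in each condition (71.5 and 103 CPM), and BCL11B and CCND1 were not lowest there in both. The sum of 8 macrophage and leukocyte markers, with TYROBP at 0, was highest there, at 12.3 and 13.7 CPM against 5.11 to 9.68 CPM in the other 6 libraries. Its most abundant gene, CD68, was at 10.9 and 11.1 CPM in clone 3 and between 3.98 and 5.27 CPM elsewhere (edgeR F test between origins, Benjamini-Hochberg adjusted p = 0.00329). CD68 carried most of this sum. PTPRC, CD14, CD163, CSF1R and AIF1 were at 0.581 CPM or less in every library. AIF1 was lowest in clone 3 in each condition and ITGAM was highest in clone 5 (0.798 and 3.25 CPM), while CD163 and CSF1R were highest in clone 3 with doxycycline. The part of these differences in the clone 3 levels of the NRF2 targets was not tested. In 9 of the 10 genes the same origin was highest without and with doxycycline, against 56.1% of all genes. In 6 of the 10 the full order of the 4 origins was the same, a count without its share over all genes, from which nothing is read.

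**Figure D3:**
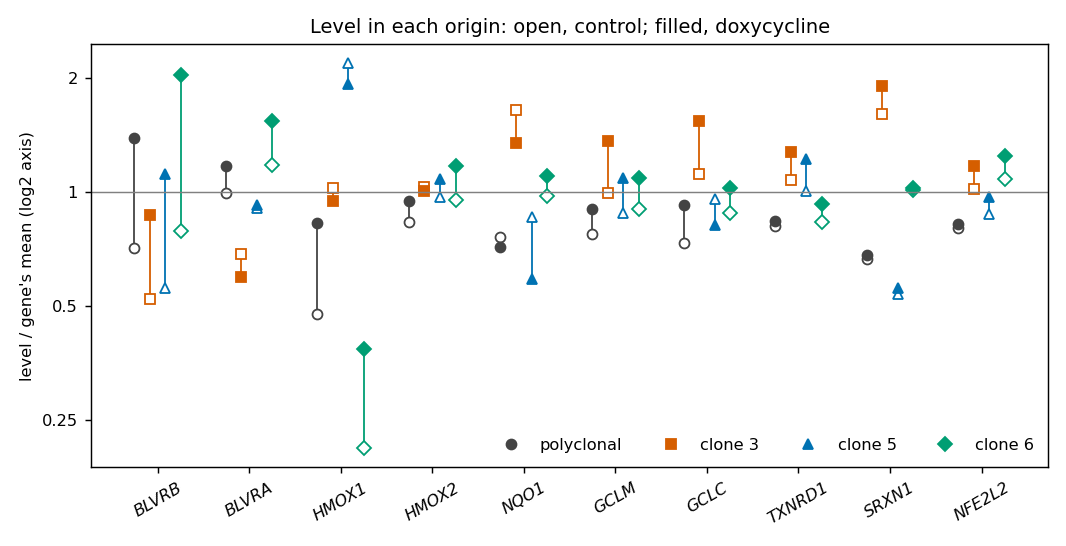
Level of each of the 10 genes in each origin relative to its mean over the 8 libraries (log axis), open for control and filled for doxycycline. Within each condition the clone 3 point is the highest for NQO1, GCLM, GCLC, TXNRD1 and SRXN1, and HMOX1 is spread the most, with a mean 6.95 times as high in clone 5 as in clone 6.

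Other genes of the same pathways were read from 6 lists with 89 genes, of which 84 were tested. Of the 84, 13 rose and 1 fell with doxycycline (16.7% called, against 7.63% of all genes tested, 3.73% higher and 3.91% lower), and their median log2 fold change was 0.09 against 0.0042. These shares of all genes are the background for each list below. With no replicate block 0 of the 84 were called. With 1 origin left out the count was 5 without bulk, 7 without clone 3, 0 without clone 5 and 1 without clone 6, while 699, 461, 175 and 230 of all genes were called. Between the origins 48 of the 84 differed (57.1%, against 39.4% of all genes tested).

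No gene of heme synthesis was called. Of the 9 listed, 8 were tested, 0 were called in either direction (1 at an unadjusted p under 0.05, and the median log2 fold change was 0.09). UROD, the uroporphyrinogen decarboxylase and the most abundant of them, was at 76.8 ± 6.57 and 89.9 ± 19.0 CPM (SD, n = 4 each; edgeR, Benjamini-Hochberg adjusted p = 0.172). For FECH, another enzyme of heme synthesis, 29.9% of the reads that the authors' mean implies were matched, so most of its signal was not read.

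Of 13 tested genes of heme and iron handling, 2 rose (3.73% of all genes did), 0 fell and 11 did not pass. POR was listed but not tested, and 0.774% of the reads that the authors' mean implies for it were matched. FTL, the ferritin light chain that stores iron, rose from 1571 ± 415 to 2002 ± 329 CPM (log2 fold change 0.37, standard error 0.0811, edgeR, Benjamini-Hochberg adjusted p = 0.0384). TFRC, the transferrin receptor that brings iron in, rose from 359 ± 57.6 to 429 ± 101 CPM (log2 fold change 0.24, edgeR adjusted p = 0.0475). Both were higher in 4 of 4 pairs.

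Among 13 regulators of NRF2, 2 rose and 0 fell (3.73% and 3.91% of all genes). DPP3, a peptidase that binds KEAP1, was at 65.7, 67.9, 75.4 and 59.9 CPM in the controls and at 81.1, 77.8, 91.8 and 80.3 CPM with doxycycline, so that the groups did not overlap (log2 fold change 0.30, standard error 0.0592, edgeR, Benjamini-Hochberg adjusted p = 0.0268). MAFK, a small MAF partner of NRF2 and BACH1, rose from 11.8 ± 3.50 to 16.2 ± 5.65 CPM (log2 fold change 0.43, edgeR adjusted p = 0.043). RBX1, a subunit of the KEAP1 ligase and the most abundant of the list per length, was at 75.0 ± 6.26 and 73.7 ± 15.8 CPM (edgeR adjusted p = 0.813).

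Of 22 other NRF2 targets tested, 3 rose and 0 fell (3.73% and 3.91% of all genes) and 19 did not pass, with a median log2 fold change of 0.06. DESeq2 with origin in the model called 4 of them higher and 2 lower. OSGIN1, a stress-induced growth inhibitor, was at 1.92, 3.87, 4.50 and 1.37 CPM in the controls and at 3.65, 8.34, 11.4 and 3.20 CPM with doxycycline. OSGIN1 was higher in 4 of 4 pairs, on a low level, and its log2 fold change was 1.15 (standard error 0.149; edgeR, Benjamini-Hochberg adjusted p = 0.00891). PRDX1, an abundant peroxiredoxin, rose from 766 ± 73.9 to 923 ± 131 CPM (log2 fold change 0.26, edgeR adjusted p = 0.0451). ME1, the cytosolic malic enzyme that makes NADPH, rose from 74.6 ± 14.4 to 87.1 ± 16.6 CPM (log2 fold change 0.22, edgeR adjusted p = 0.0424), though 44.9% of its reads were matched. In both conditions clone 3 was highest for 6 of these 22 genes and clone 6 for 5 (13.8% and 20.2% of all genes tested). Clone 3 was highest for 4 of the 13 regulators and clone 6 for 2, and clone 6 was highest for more genes than clone 3 in the glutathione cycle (7 of 15 against 2), the thioredoxin and peroxiredoxin system (7 of 13 against 2), heme and iron handling (5 of 13 against 3) and heme synthesis (4 of 8 against 0).

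In the glutathione cycle 4 of 15 tested genes rose and 0 fell (3.73% and 3.91% of all genes). GSR, which reduces oxidized glutathione, was at 141, 187, 161 and 155 CPM in the controls and at 168, 235, 202 and 197 CPM with doxycycline, higher in 4 of 4 pairs (log2 fold change 0.31, standard error 0.0483, edgeR, Benjamini-Hochberg adjusted p = 0.0144). GSTM3, a glutathione transferase, rose from 54.8 ± 6.59 to 74.7 ± 15.1 CPM (log2 fold change 0.43, edgeR adjusted p = 0.0181). CHAC1, which breaks glutathione down, rose from 10.0 ± 3.88 to 16.2 ± 6.40 CPM (log2 fold change 0.65, edgeR adjusted p = 0.0484). GPX3, a secreted glutathione peroxidase, rose from 0.821 ± 0.724 to 2.06 ± 1.42 CPM (log2 fold change 1.42, edgeR adjusted p = 0.018), a low level in both groups. GSTP1, the most abundant per length, was at 684 ± 48.5 and 801 ± 107 CPM (edgeR adjusted p = 0.11).

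In the thioredoxin and peroxiredoxin system 2 of 13 rose and 1 fell (3.73% and 3.91% of all genes). CAT, catalase, rose from 89.1 ± 13.3 to 108 ± 17.6 CPM (log2 fold change 0.28, edgeR, Benjamini-Hochberg adjusted p = 0.0314), and SOD1, a superoxide dismutase, from 318 ± 24.5 to 386 ± 66.0 CPM (log2 fold change 0.27, edgeR adjusted p = 0.0428). TXNIP, an inhibitor of thioredoxin, was at 64.4, 37.8, 20.3 and 77.9 CPM in the controls and at 54.4, 19.2, 13.3 and 56.6 CPM with doxycycline. TXNIP was lower in 4 of 4 pairs (log2 fold change -0.56, standard error 0.114, edgeR adjusted p = 0.0298). Beside these lists, 1 of 4 epithelial markers, KRT18, rose (log2 fold change 0.52, edgeR adjusted p = 0.0161, and 0.795 with no replicate block), 3 of 4 had an unadjusted p under 0.05, and the list's sum went from between 86.2 and 171 CPM in the controls to between 127 and 201 CPM. EPCAM (log2 fold change 1.90, edgeR adjusted p = 0.0501) and KRT8 (0.78, edgeR adjusted p = 0.122) were also higher in 4 of 4 pairs but did not pass. EPCAM was near the floor, at means of 0.499 and 1.22 CPM. KRT8 was 3.57 times its control in clone 5, and its log2 fold change was 0.41 to 1.02 with 1 origin left out. CDH1, the remaining marker, was lower in 3 of 4 pairs (log2 fold change -0.08), also near the floor.

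**Figure D4:**
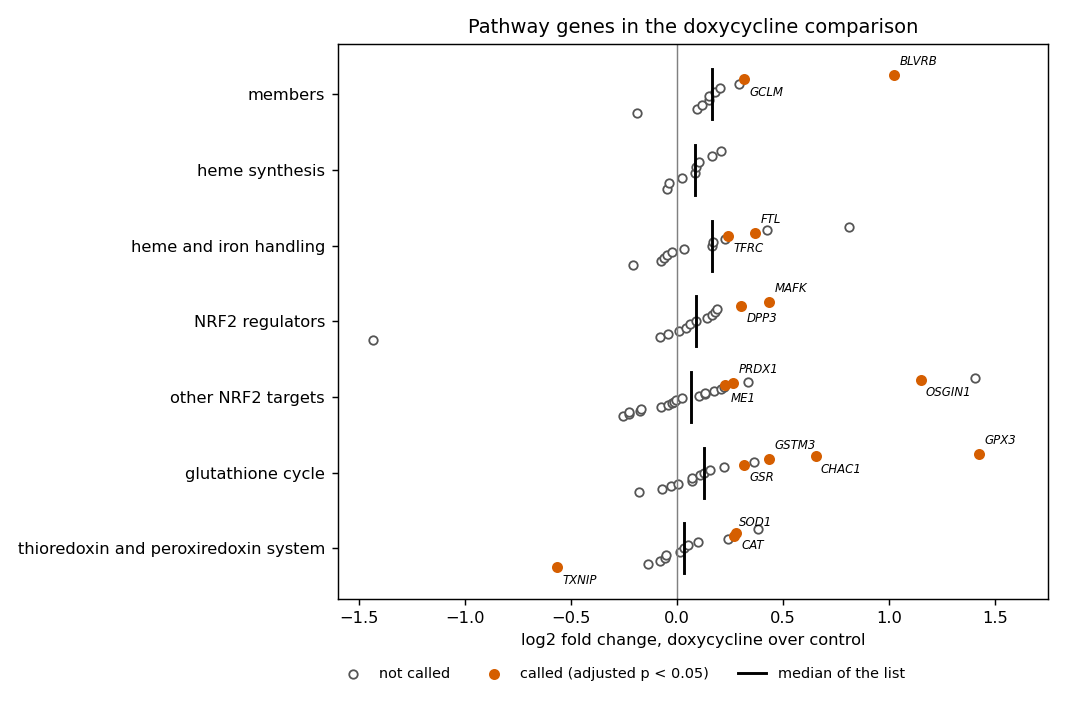
Fitted log2 fold change of doxycycline over control (horizontal axis) for the 10 genes (members) and for the tested genes of the 6 pathway lists. Filled points are called at an adjusted p under 0.05 and black bars are list medians. BLVRB (1.02) lies well to the right of the other 9, while OSGIN1 (1.15) and GPX3 (1.42) are called genes further out, AKR1B10 (1.40) and BACH2 (-1.43) are open points further out that were picked after their values were seen, and TXNIP (-0.56) is the called gene that fell.

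The genes around BLVRB on chromosome 19 were read to see whether the change reached beyond it. PRX, SERTAD1 and SERTAD3 on one side and SPTBN4, SHKBP1 and LTBP4 on the other had log2 fold changes of -0.62, -0.05, 0.13, 0.02, 0.05 and 0.04. The value of PRX (standard error 0.47) rested on clone 5, where it was at 7.79 CPM without and 1.06 CPM with doxycycline, and it was -0.07 to -1.11 with 1 origin left out. None of the 6 passed (edgeR, Benjamini-Hochberg adjusted p between 0.40 and 0.974). The nearest, SPTBN4 at 1256 bases, was at 1.37 and 1.59 CPM in the means of the groups, with a standard error of 0.31 on the log2 scale. SERTAD3, 3433 bases away, was at 17.3 and 18.9 CPM, and SHKBP1, the most expressed of them in CPM, at 68.3 and 71.3.

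The level of BLVRB over the 8 libraries was most like that of SP110 (Pearson r of log2 CPM 0.972), GSTM3 (0.969), RIDA (0.967), IL10RB (0.962) and PROSER2 (0.962) among 9444 genes at a mean of 10 CPM or more. These libraries share their origins in pairs and the likeness was ranked over many genes, so it is a description. Among the other 9 genes, BLVRA was most like BLVRB (r = 0.665, rank 779), followed by HMOX2 (0.518) and NFE2L2 (0.342). GCLM was at 0.300, GCLC at -0.029, SRXN1 at -0.101, TXNRD1 at -0.129, HMOX1 at -0.277 and NQO1 at -0.291, values too weak over 8 paired libraries to give a direction.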

How the data were processed

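TruSeq stranded mRNA libraries were sequenced on a NovaSeq. Per the labels and the study's methods, the authors quantified reads with Salmon against RefSeq transcripts of GRCh38 and deposited estimated counts and TPM for 158867 transcripts per library, and a table made with DESeq2 (2.11.40.6). From that table only the authors' deposited mean of normalized signal was read, to check the matching. Its columns of fold changes and p-values were not used. Whether Salmon used strand is not given in the sources used here.

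The 115325 transcripts with a symbol (72.6%) held 89.9% to 91.1% of the reads of each library. Estimated counts were summed per gene and rounded. After filterByExpr and TMM scaling, the quasi-likelihood test of edgeR 4.0.16 (R 4.3.3) was run with treatment and origin in the model and Benjamini-Hochberg adjustment over all genes tested, at 0.05. The study's methods name no pairing, so the fit with no replicate block and DESeq2 1.42.0 were alternatives, beside other scaling, other filters, curated transcripts, an effective length offset and leaving out each origin. Cultures of 1 origin are the same cells; their deviations from the group means correlated at 0.406 (bulk), 0.546, 0.590 and 0.582 (clones 3, 5 and 6), and those of different origins between -0.395 and 0.179. Log2 ratios of pairs used a pseudocount of 0.5 CPM. The fits were tested on simulated data.

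The 10 genes, the pathway and marker lists and the tests were chosen with earlier results of these data known. The genes named are the 10, FEZF1, the called genes of each pathway list (up to 4 with the smallest p) and its most abundant gene, the 3 tested genes on each side of BLVRB and the 5 most like it; changed marker genes were added after their values were seen. The value of 1 marker gene is not reported here. The table of the clone 5 control was laid out differently from the other 7, with rows in another order and counts written with 3 decimals. Whether it came from the same run or version of Salmon is not known, and every value of the clone 5 pair rests on it. Promoter sequences are from RefSeq (GRCh38.p14).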

Additional observations from a re-analysis of the deposited data

Results flagged for a closer look

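Of 58 groups of 4 cultures examined for a culture far from the others, 1 stood out, where chance gives about 2.9. GPX3, the secreted glutathione peroxidase, reached 4.19 CPM in clone 3 with doxycycline, against 1.26 to 1.41 CPM in the other doxycycline cultures. The clone 3 control was also the highest control, at 1.89 CPM.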

How the results depend on the processing

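The sign of each of the 10 genes' log2 fold changes was the same under all alternatives, and over 28 named genes 237 of 335 values kept their side of the threshold, 96 were no longer past it and 2 came to pass it. Genes changed by doxycycline numbered 1221 with origin as a replicate block, 1 with no replicate block, 231 by DESeq2 with no replicate block, 1920 by DESeq2 with origin, 493 with curated transcripts and 699 without bulk, 461 without clone 3, 175 without clone 5 or 230 without clone 6. The counts among the 10 genes were 2, 0, 1, 3, 1 and 1 in the same order (1 without each origin), and those among the pathway lists were 14, 0, 0, 22, 5 and, without the origins in the same order, 5, 7, 0 and 1; DESeq2 size factors gave 9 in the lists. Genes differing between origins numbered 6300, 4054 with curated transcripts, and 5266, 5300, 4080 and 2970 without bulk and clones 3, 5 and 6; among the 10 genes 9 differed, 7 with curated transcripts and 6 to 9 with 1 origin left out. BLVRB minus the median of the other 9 had a median over pairs of 0.86, and 0.77 to 0.94 with 1 origin left out. The causes of these shifts were not tested, beyond fewer cultures or transcripts. The level of GCLC, of which 49.1% of the reads were matched, is understated.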
